A study of Mus musculus with 2 samples.

Results

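Focal adhesions are the sites where integrins, the matrix receptors of the cell surface, are tied to the actin cytoskeleton. The genes described here are 10 cytoplasmic linkers and kinases of these sites, *Tln1*, *Fermt2*, *Ilk*, *Lims1*, *Parva*, *Ptk2*, *Pxn*, *Vcl*, *Zyx* and *Tns1*, taken by name, with no integrin among them. Digital gene expression (DGE) tags were counted in 2 libraries, 1 from GC-1spg cells and 1 from GC-2spd (ts) cells. In DGE, *Nla*III cuts cDNA at CATG and each transcript is counted by a tag of 21 bases, CATG and the 17 bases after it. Tags were matched to mouse transcripts with at most 1 mismatch, and the sense tags that belonged to 1 gene only were summed per gene. Of the 10 genes, 9 had such a tag, among 14450 genes that had one.

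GC-1spg is a mouse line made from type B spermatogonia of a 10 days old donor with the plasmid pSV3-neo, and its label places it at a stage between these cells and the primary spermatocyte. The line GC-2spd (ts) is a mouse line made from spermatocytes of a 6 weeks old donor with the SV40 large T antigen, and its label gives a premeiotic arrest. Both carry a viral transforming gene, both were grown in medium with 10% serum, and neither was treated. The study set the lines side by side to ask how expression differs between these steps of spermatogenesis. With 1 library per line there are no replicates, so the tests set 1 library against the other and cannot speak for the lines. The libraries hold 5072149 and 4726808 clean tags, so that on the TPM scale (tags per 1000000 clean tags) 1 copy counts 0.197 for GC-1spg and 0.212 for GC-2spd (ts). Tags with fewer than 2 copies are not listed, and intervals cover counting error only. None of the 10 germ cell markers of the list (*Ddx4*, *Dazl*, *Kit*, *Stra8*, *Sycp3*, *Zbtb16*, *Dmrt1*, *Mael*, *Tex14* and *Dmc1*) had a listed sense tag that matched it alone, and with sense matches preferred over antisense ones *Sycp3* had 2 copies in GC-1spg against 0 in GC-2spd (ts).

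Talin and kindlin bind the tails of integrin β subunits and switch integrins on. Integrin-linked kinase, PINCH and parvin form a stable complex that joins the same tails to actin. Focal adhesion kinase and its partner paxillin relay the signal, while vinculin, zyxin and tensin connect the site to actin filaments. In the testis such adhesion proteins are known from the contacts of Sertoli cells with germ cells and with the basement membrane, and in cultured cells they are known from spreading and migration.

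Of these genes *Tns1* alone passed the call in the main count. *Fermt2*, *Lims1*, *Parva* and *Zyx* differed by less than the call asks for, and *Tln1* and *Ptk2* showed no difference that the counts could resolve. *Pxn* and *Vcl* had few tags there by which to judge, and *Ilk* had none of its own. With a poly(A) tail added to each transcript, *Pxn* was called lower in GC-2spd (ts), with a log2 ratio of -1.84. A gene was called when the two-sided Audic-Claverie test gave a false discovery rate (FDR) of at most 0.001, adjusted over all genes, and the log2 ratio of GC-2spd (ts) over GC-1spg was at least 1 in size. By this rule 11.7% of all genes were called higher in the GC-2spd (ts) library, 7.84% lower and 19.5% in either direction. Of the 9 listed adaptors and kinases, 1 was called higher, 0 were called lower and 8 were not called. The median log2 ratio was 0.74 over the 9 genes and 0.16 over the 11373 genes that were listed in both libraries. That of the adaptors and kinases was 0.37 with sense matches preferred and 0.37 with tags that match several genes split between them. The ratio was above 0 for 8 of the 9 and below 0 for *Pxn*, and with sense matches preferred it was above 0 for 8 of 10 and below 0 for *Pxn* and *Vcl*. Scaling by TMM in place of the total of clean tags lowered the median of all genes by 0.17 on the log2 scale. Under TMM the median of the 9 genes was 0.57 against -0.01 for all genes, 7 ratios were above 0 because that of *Tln1* changed sign, and *Pxn* was called lower. The calls over all genes were then 1292 higher and 1443 lower, against 1684 and 1133 with the main scaling.

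**Figure D1:**
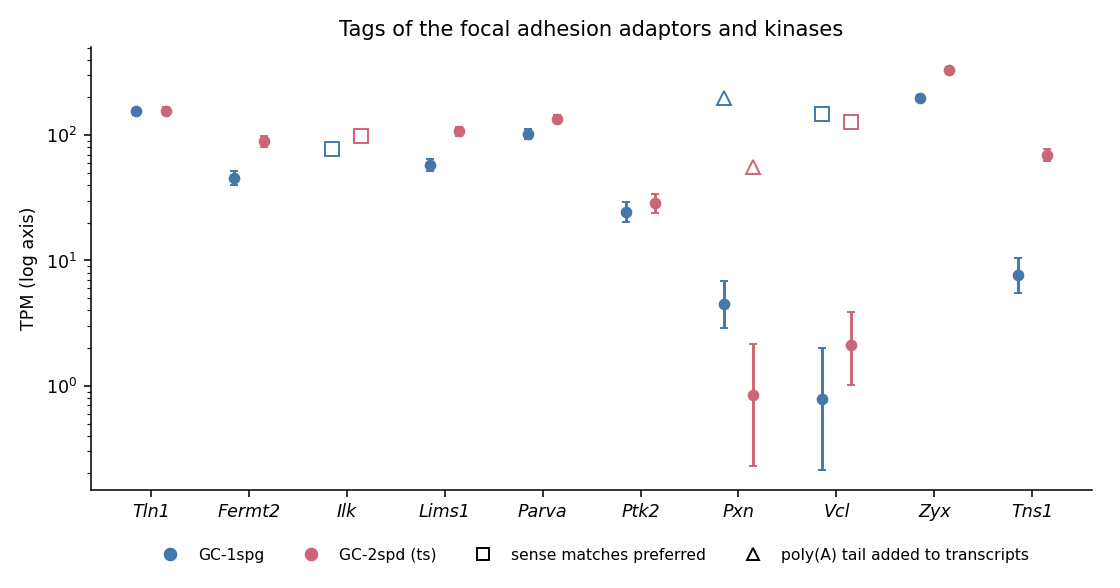
Level of each gene in TPM (log axis) in the GC-1spg library (blue) and the GC-2spd (ts) library (red), with exact Poisson 95% intervals on the filled points. Open squares count tags that also match another gene on its antisense strand (*Ilk*, *Vcl*) and open triangles count tags that run into the poly(A) tail (*Pxn*); *Tns1* stands at 7.69 and 69.4 TPM, while *Tln1* stands at 154 and 155 TPM.

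Tensin 1, which binds actin and the tails of integrins and marks fibrillar adhesions, had the clear difference. *Tns1* had 39 copies in GC-1spg, 7.69 TPM (5.47 to 10.5), and 328 copies in GC-2spd (ts), 69.4 TPM (62.1 to 77.3). The level was 9.02-fold higher in the GC-2spd (ts) library, a log2 ratio of 3.17 (exact 95% interval 2.69 to 3.69, Audic-Claverie FDR 5.72e-61). In RNA from a whole culture, more cells with the transcript and more transcript per cell cannot be told apart. The higher count did not come from 1 site. All 3 sites listed in both libraries had more tags in GC-2spd (ts), and another 15 sites were listed in GC-2spd (ts) only. The 3 sites are shown because they carry the difference, with CATG in capitals and positions on GRCm38, minus strand.
*Tns1*, chr1:73910681-73910701: CATGcctggcccctcacagca
*Tns1*, chr1:73912955-73912975: CATGagacatactgatagaat
*Tns1*, chr1:73914537-73914557: CATGctgagtgctggccagaa
The first lies in the 3′ UTR, at the last CATG of the transcript, and had 16 copies in GC-1spg against 109 in GC-2spd (ts). The second, also in the 3′ UTR, had 16 and 79 copies. The third lies in the coding sequence and had 7 and 69 copies. Their log2 ratios of 2.87, 2.41 and 3.40 had intervals that overlap one another. Of the 15 alternatives run, the call of *Tns1* was lost only in edgeR's exact test with an assumed biological coefficient of variation (BCV) of 0.4, where the adjusted p was 0.02.

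**Figure D2:**
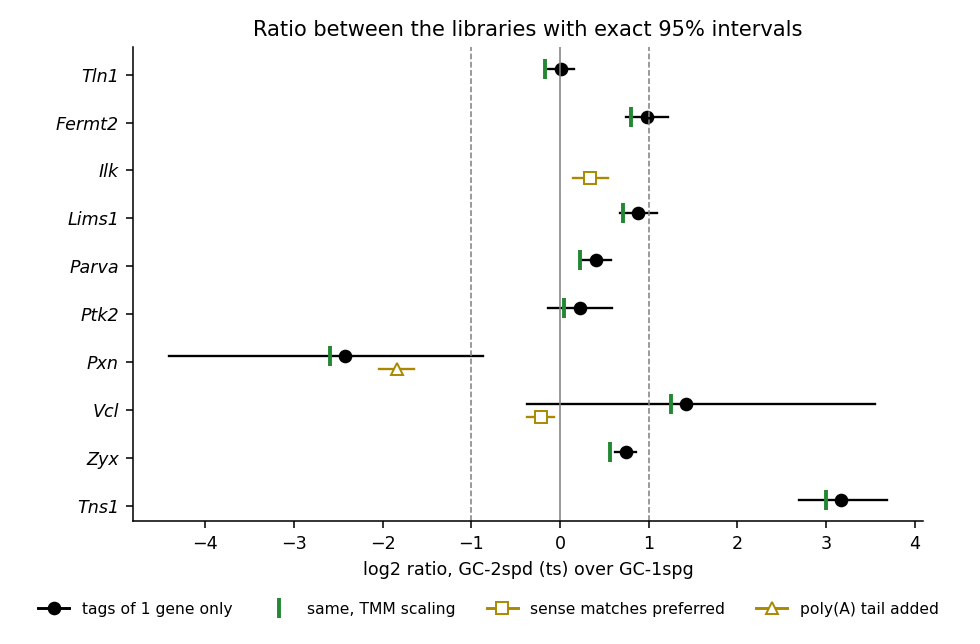
log2 ratio of GC-2spd (ts) over GC-1spg (x axis) for each gene (y axis), with exact 95% intervals as lines and dashed lines at -1 and 1. Black points use tags of 1 gene only, green ticks the same counts with TMM scaling, gold squares the tags shared with an antisense match and the gold triangle the tags that run into the poly(A) tail; *Tns1* is at 3.17, and *Vcl* moves from 1.42 to -0.22 when its shared tags are counted.

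Of the pair that activates integrins, talin 1 was alike in the libraries and kindlin 2 was higher in GC-2spd (ts) but short of the call. *Tln1* had 783 copies in GC-1spg (154 TPM) against 733 in GC-2spd (ts) (155 TPM), a log2 ratio of 0.01 (-0.14 to 0.15, FDR 0.98). A difference beyond 0.15 in either direction lies outside its counting interval, which does not cover the choice of scaling. With TMM scaling the log2 ratio of *Tln1* was -0.17, outside that interval. *Fermt2*, which encodes kindlin 2, had 230 copies (45.3 TPM) and 422 copies (89.3 TPM). Its log2 ratio was 0.98 (0.74 to 1.22, FDR 3.47e-16), just under the limit of 1. The tags that hold most of these counts are shown with their GRCm38 positions, both on the minus strand.
*Tln1*, chr4:43532929-43532949: CATGctagccaggagaaactc
*Fermt2*, chr14:45458835-45458855: CATGaattaaagactgtataa
The *Tln1* tag lies in the coding sequence of exon 55 and had 602 and 497 copies, and all but 2 of the *Tln1* tags in GC-1spg were in the coding sequence. The *Fermt2* tag lies in the 3′ UTR, 40 bases before the transcript end, and had 199 and 357 copies. A further *Tln1* tag with 35 and 24 copies also matches *Tln2* and was left out.

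In the complex of integrin-linked kinase, PINCH 1 and α-parvin, no gene passed the call. *Lims1*, which encodes PINCH 1, had 294 copies in GC-1spg (58.0 TPM) against 506 in GC-2spd (ts) (107 TPM), a log2 ratio of 0.89 (0.67 to 1.10, FDR 2.00e-16). *Parva* had 516 copies (102 TPM) and 636 copies (135 TPM), a log2 ratio of 0.40 (0.23 to 0.57, FDR 1.06e-05). *Ilk* had no tag of its own, because all its listed tags also match *Taf10*, a gene on the other strand. *Ilk* spans chr7:105736592-105742925 and *Taf10* spans chr7:105739393-105744361, so the ends of the genes overlap. The tags of the 3 genes that matter for this reading are shown, all on the plus strand.
*Ilk*, chr7:105742875-105742895: CATGggagggatcagccccgc
*Lims1*, chr10:58424458-58424478: CATGttcaaagccttattata
*Parva*, chr7:112591639-112591659: CATGattccagaaatactctg
*Parva*, chr7:112588881-112588901: CATGtgctgtggggatcaaca
The *Ilk* tag lies in the 3′ UTR, at the last CATG of the gene, and had 390 and 464 copies. With sense matches preferred over antisense ones, *Ilk* had 395 copies (77.9 TPM) and 466 copies (98.6 TPM), a log2 ratio of 0.34 (0.14 to 0.54, FDR 0.0018), which was not called. The *Lims1* tag had 255 and 430 copies.

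For *Parva* the 2 tags shown differed in how the libraries used them. The first, at the last CATG of the full 3′ UTR, had 435 copies in GC-1spg against 425 in GC-2spd (ts). The second lies 69 bases before the end of a transcript with a shorter 3′ UTR, and had 0 listed copies in GC-1spg against 132 in GC-2spd (ts), at least 29.9-fold more. Its limit allows 1 unlisted copy in GC-1spg, since tags with 1 copy were removed before deposit. The most used site held 84.3% of the *Parva* tags in GC-1spg (exact interval 80.9 to 87.3) against 66.8% in GC-2spd (ts) (63.0 to 70.5). Fisher's exact test of this share, with an FDR of at most 0.001 and a change of at least 10 percentage points, called 5.18% of the 7470 genes with at least 2 sites and 20 tags in each library. *Parva* was called by it, as 1 of 7 adaptors and kinases that could be tested. Without the second tag, *Parva* had 516 and 504 copies and a log2 ratio of 0.07 (-0.11 to 0.25).

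The most used sites of the other 6 testable genes were not called shifted. *Tln1* moved from 76.9% to 67.8% of its tags (FDR 0.0013) and *Zyx* from 94.4% to 90.4% (FDR 0.0031), both under 10 percentage points. *Ptk2* moved from 31.5% to 43.7%, with an FDR of 0.19. *Tns1* moved from 41.0% to 33.2%, with an FDR of 0.62, and *Fermt2* and *Lims1* stayed between 84.6% and 86.7%. In each of *Tln1*, *Fermt2*, *Lims1*, *Parva*, *Zyx* and *Tns1* the sites other than the most used one had a higher log2 ratio than that site, and in *Ptk2* a lower one. How often this direction occurs over all testable genes was not computed, so it cannot be read as a trait of these genes. The intervals overlapped for *Fermt2*, *Lims1*, *Tns1* and *Ptk2*. For *Zyx* the values were 1.51 (1.06 to 1.98) over 9 other sites and 0.68 (0.56 to 0.80) at the most used one. For *Tln1* they were 0.48 (0.20 to 0.77) over 24 other sites and -0.17 (-0.35 to -0.00).

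**Figure D3:**
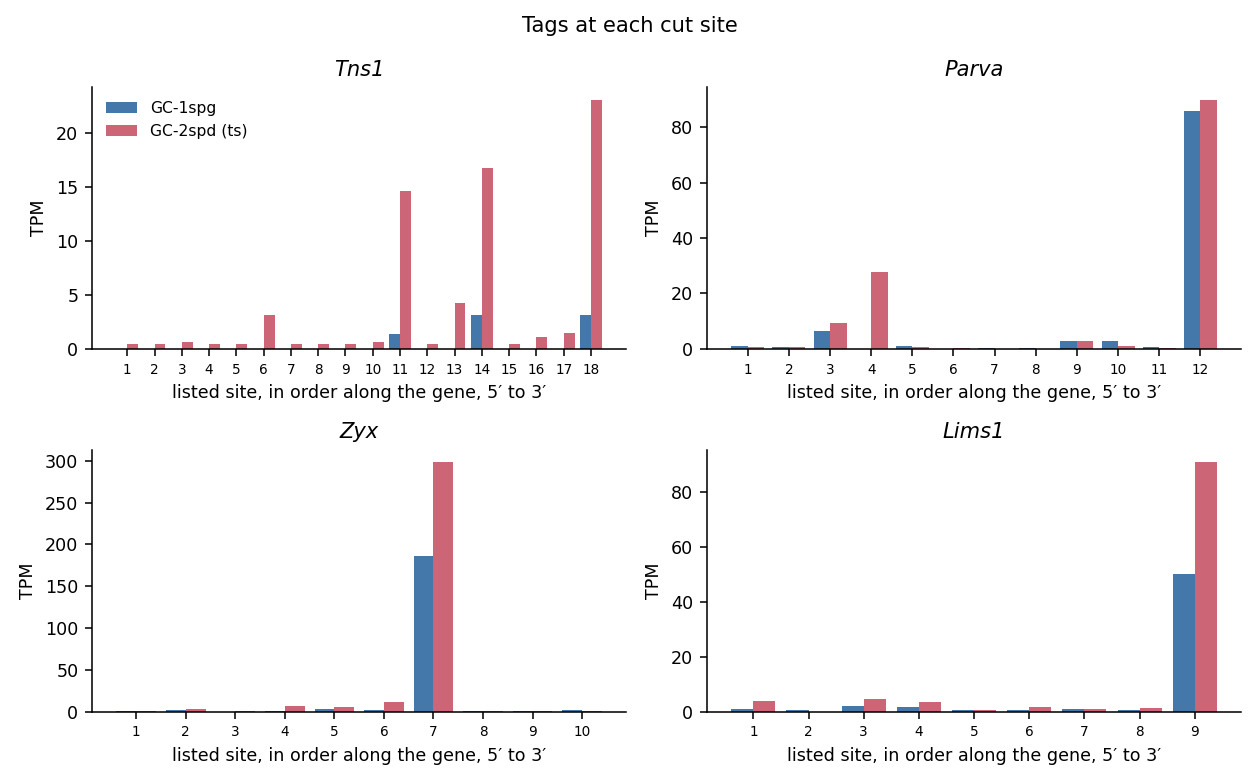
TPM (y axis, from 0) at each listed CATG site of *Tns1*, *Parva*, *Zyx* and *Lims1*, in order along the gene from 5′ to 3′ (x axis), in GC-1spg (blue) and GC-2spd (ts) (red). *Tns1* has higher bars in GC-2spd (ts) at all sites, *Parva* has 1 site with 0 and 132 copies beside a main site with 435 and 425, and *Zyx* and *Lims1* rest on 1 site each.

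Focal adhesion kinase showed no difference that the counts could resolve. *Ptk2*, which encodes it, had 124 copies in GC-1spg (24.4 TPM) against 135 in GC-2spd (ts) (28.6 TPM), a log2 ratio of 0.22 (-0.14 to 0.59, FDR 0.34). Its most used sites are shown with GRCm38 positions on the minus strand.
*Ptk2*, chr15:73205327-73205347: CATGttgactcttacagccac
*Ptk2*, chr15:73205211-73205231: CATGcattctgttaggtgatt
The first had 39 and 59 copies, of which 30 and 48 carried the substitution C21A, counted from 1 at the C of CATG with the base of the reference first. The second had 43 and 47 copies. With exact matches only, *Ptk2* had 94 and 85 copies and a log2 ratio of -0.04 (-0.48 to 0.39). Another 25 *Ptk2* tags match more than 4 other genes, held 67155 and 42767 copies and were left out.

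*Pxn* encodes paxillin, the scaffold that recruits the kinase. By the tags of the main count it was scarce, with 23 copies in GC-1spg (4.53 TPM) against 4 in GC-2spd (ts) (0.85 TPM). The log2 ratio was -2.42 (-4.41 to -0.87) and the FDR of 0.0011 just missed the limit of 0.001. The last CATG of *Pxn* starts at chr5:115555972, which leaves fewer bases than a tag needs, since the annotated transcripts end at 115555982 and 115555987. With a poly(A) tail added to each transcript, these deposited tags match *Pxn* and no other gene.
*Pxn*, 11 bases of transcript and then A: CATGattttcaaaaaaaaaaa
*Pxn*, 16 bases of transcript and then A: CATGattttcacccgaaaaaa
The first had 538 copies in GC-1spg against 94 in GC-2spd (ts), and the second 440 and 163. With them *Pxn* had 1012 copies (199.5 TPM) and 263 copies (55.6 TPM), a log2 ratio of -1.84 (-2.04 to -1.65, FDR 4.48e-91), and was called lower in GC-2spd (ts). The first tag rests on few transcript bases, and whether poly(A) ends outside the reference share it was not tested. The test of site shares then took these 2 tags as separate sites, though they start at the same CATG. The share of the first moved from 53.7% (50.5 to 56.8) to 36.5% (30.7 to 42.6), which Fisher's exact test called (FDR 2.01e-05). This call is thus between 2 tags of 1 CATG and shows no shift between CATG sites.

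Of the proteins that tie the site to actin, besides tensin 1, zyxin was higher in GC-2spd (ts) and short of the call. *Zyx*, which encodes a LIM protein of tension-bearing adhesions, had 1002 copies in GC-1spg (198 TPM) against 1559 in GC-2spd (ts) (330 TPM), a log2 ratio of 0.74 (0.62 to 0.86, FDR 3.29e-36). *Vcl* encodes vinculin, which clamps talin to actin. It had only 4 copies (0.79 TPM) and 10 copies (2.12 TPM) among tags of 1 gene, a log2 ratio of 1.42 (-0.37 to 3.55, FDR 0.23). Its main tag lies where *Vcl*, chr14:20929398-21033676, overlaps *Ap3m1*, chr14:21031442-21052508, on the other strand. The main tags of *Zyx* and *Vcl* are shown, both on the plus strand and in the 3′ UTR.
*Zyx*, chr6:42358093-42358113: CATGgcctacaagtattgagg
*Vcl*, chr14:21033489-21033509: CATGtccaccagatgtgcttt
The *Zyx* tag had 946 and 1410 copies. The *Vcl* tag had 701 copies in GC-1spg against 536 in GC-2spd (ts). With sense matches preferred, *Vcl* had 752 copies (148 TPM) and 602 copies (127 TPM), a log2 ratio of -0.22 (-0.38 to -0.06, FDR 0.013). The direction of *Vcl* therefore depends on whether these shared tags are counted, and it was called in neither count. The deposited tags are strand-specific in sequence, and the main *Vcl* tag has the strand of *Vcl* mRNA, not that of *Ap3m1* mRNA. The main count leaves it out because it also matches *Ap3m1* in antisense. Antisense tags of other genes were listed in these libraries, and whether this tag comes from *Vcl* was not tested.

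The paralogues of the 10 genes were called in both directions. Of 14 paralogues 11 were listed, 6 were called higher in GC-2spd (ts), 2 were called lower and 3 were not called, beside 11.7% and 7.84% of all genes. Their median log2 ratio was 1.49 over the 8 listed in both libraries, and 1.34 with the other 3 at their limits. With sense matches preferred, 4 were called higher and 2 lower, and the median was 1.08. These lists were drawn up with results of the data known, so the counts describe them and test nothing.

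In the zyxin family *Trip6* had 346 copies in GC-1spg against 815 in GC-2spd (ts), for a log2 ratio of 1.34 (1.15 to 1.52, FDR 4.02e-50). *Lpp*, also a LIM protein that shuttles to the nucleus, had 168 and 462 copies, a log2 ratio of 1.56 (1.30 to 1.82, FDR 5.35e-36). Both were called higher, and both intervals lie above that of *Zyx* itself. *Tgfb1i1*, the paxillin paralogue Hic-5, had 69 and 245 copies, a log2 ratio of 1.93 (1.54 to 2.34, FDR 7.45e-26), which is the opposite direction to *Pxn*. The other paxillin paralogue, *Lpxn*, had 6 copies and 0 copies and was not called.

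Among the tensins, *Tns2* had 159 copies in GC-1spg against 30 in GC-2spd (ts), for a log2 ratio of -2.30 (-2.92 to -1.73, FDR 1.26e-19). *Tns4*, a short tensin without the actin-binding part, had 100 copies and 0 listed copies, lower by at least 10.2-fold (FDR 4.52e-28). *Tns3* had 387 and 460 copies, a log2 ratio of 0.35 (0.15 to 0.55, FDR 0.0014), and was not called. With *Tns1*, the 4 tensins thus gave 1 call up, 2 calls down and 1 without a call. The summed tags of a family are not compared between genes here.

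*Ptk2b*, the kinase Pyk2, had 28 copies in GC-1spg against 90 in GC-2spd (ts), for a log2 ratio of 1.79 (1.16 to 2.45, FDR 5.43e-09), and was called higher. *Tln2* had 27 and 67 copies, a log2 ratio of 1.41 (0.75 to 2.11, FDR 3.84e-05). Counting its tags that match *Gm31458* in antisense gave 45 and 74 copies, a log2 ratio of 0.82 and no call. *Parvb* had 16 and 177 copies, a log2 ratio of 3.57 (2.83 to 4.41, FDR 1.13e-36). A further 345 and 22 copies match *Parvb* in sense and *Cdc26* in antisense, and with them *Parvb* had 361 and 199 copies, a log2 ratio of -0.76 (-1.01 to -0.50), which was not called. *Parvg* had 0 and 5 copies and was not called, and *Fermt1*, *Fermt3* and *Lims2* had no listed tag.

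**Figure D4:**
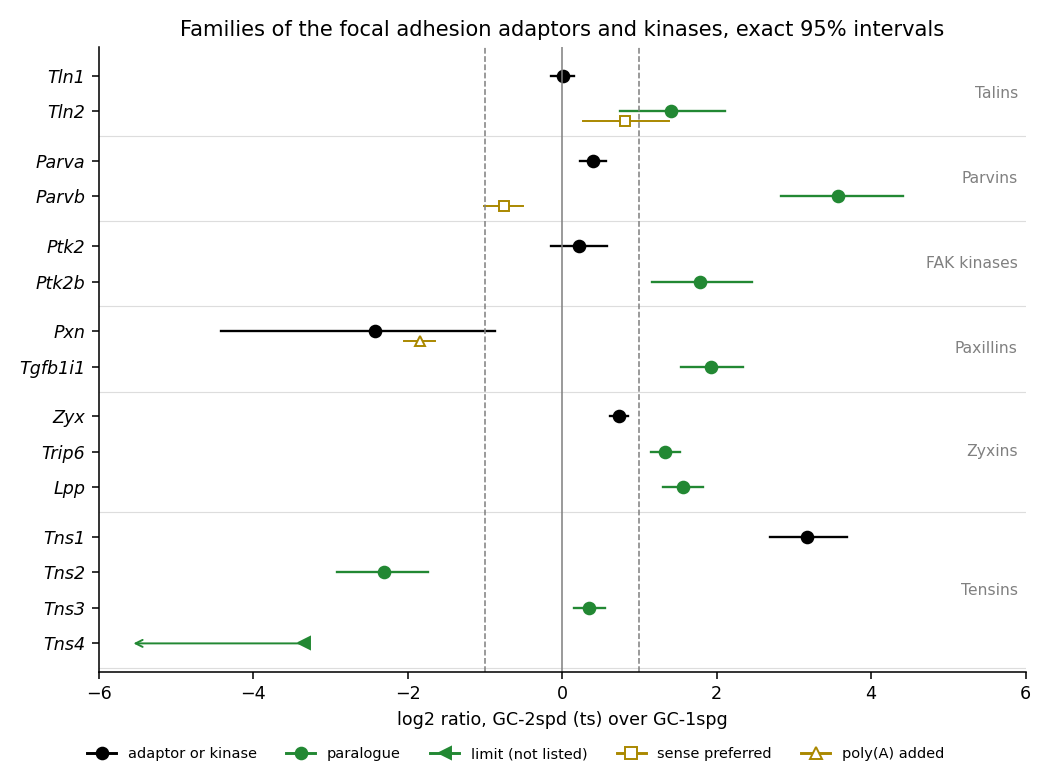
log2 ratio of GC-2spd (ts) over GC-1spg (x axis) for the genes of 6 families (y axis), with exact 95% intervals; black is one of the 10 adaptors and kinases, green a paralogue, the arrow a limit for a gene with no listed tag in GC-2spd (ts), and gold the alternative counts. *Tns1* and *Tns2* lie on opposite sides of 0, as do *Pxn* and *Tgfb1i1*.

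Another 58 genes of focal adhesions, in 5 lists, give the surroundings. Of the 55 that were listed, 14 were called higher, 4 lower and 37 were not called, beside 11.7% and 7.84% of all genes, and the median log2 ratio was 0.53 over the 51 listed in both libraries (0.45 with the others at their limits). Among actin crosslinkers and polymerisation factors 2 of 12 were called, both higher, beside 19.5% of all genes called in either direction. *Flna*, filamin A, had 1345 and 3210 copies, a log2 ratio of 1.36 (FDR 1.99e-200), and *Nexn* had 21 and 99 copies, a log2 ratio of 2.34. *Actn1*, α-actinin 1, was abundant with 1323 and 1650 copies and was not called.

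In the Src, p130Cas and Crk list 1 of 13 listed genes was called higher and 0 lower, beside the same 11.7% and 7.84%. It was *Dock1*, an exchange factor for Rac, with 75 and 141 copies and a log2 ratio of 1.01. Under TMM *Dock1* lost the call, and 0 genes of the list were called higher and 2 lower, beside 8.94% and 9.99% of all genes. The 2 were *Src*, with 313 and 157 copies and a TMM log2 ratio of -1.07, and *Ptpn12*, with 481 and 233 copies and -1.12. *Bcar1*, which encodes p130Cas, had 830 and 649 copies, and *Crk* had 531 and 716 copies. Neither was called.

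In the list of GIT, PIX, GTPase regulators and talin recruitment, 4 of 12 were called higher and 2 lower, beside 11.7% and 7.84% of all genes. *Apbb1ip*, which encodes RIAM, the adaptor that brings talin to the membrane with Rap1, had 3 copies in GC-1spg against 271 in GC-2spd (ts), for a log2 ratio of 6.60 (5.04 to 8.89). *Rap1a* had 116 and 385 copies, a log2 ratio of 1.83, while the more abundant *Rap1b* had 625 and 976 copies and was not called. *Pip5k1c*, whose lipid kinase binds talin, had 68 and 163 copies, a log2 ratio of 1.36. *Dlc1*, a RhoGAP that binds tensins, had 33 and 214 copies, a log2 ratio of 2.80. *Sharpin*, which holds integrins inactive, was lower, with 134 and 51 copies and a log2 ratio of -1.29. *Asap2* was called lower with 15 and 0 copies, with 0.01 TPM for the latter. Its limit of at least 1.53-fold is short of the size that the call asks for. With sense matches preferred *Asap2* had 104 and 3 copies, a log2 ratio of -5.01, and was called lower. *Asap1* had 760 and 640 copies and was not called.

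Of the LIM and SORBS adaptors 6 of 15 were called higher and 2 lower, with 11.7% and 7.84% over all genes. *Fhl1*, *Fhl2* and *Fhl3*, LIM proteins of muscle and of stress fibres, had log2 ratios of 3.84, 2.30 and 1.58. *Pdlim1* had 83 and 411 copies and *Pdlim5* had 440 and 1017. *Rsu1*, which binds PINCH 1 in the complex of integrin-linked kinase, had 265 and 674 copies, a log2 ratio of 1.45. *Csrp1* was lower, with 3404 and 1081 copies and a log2 ratio of -1.55. *Kank1*, which binds talin at the rim of adhesions, had 274 and 0 copies, lower by at least 40.6-fold.

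**Figure D5:**
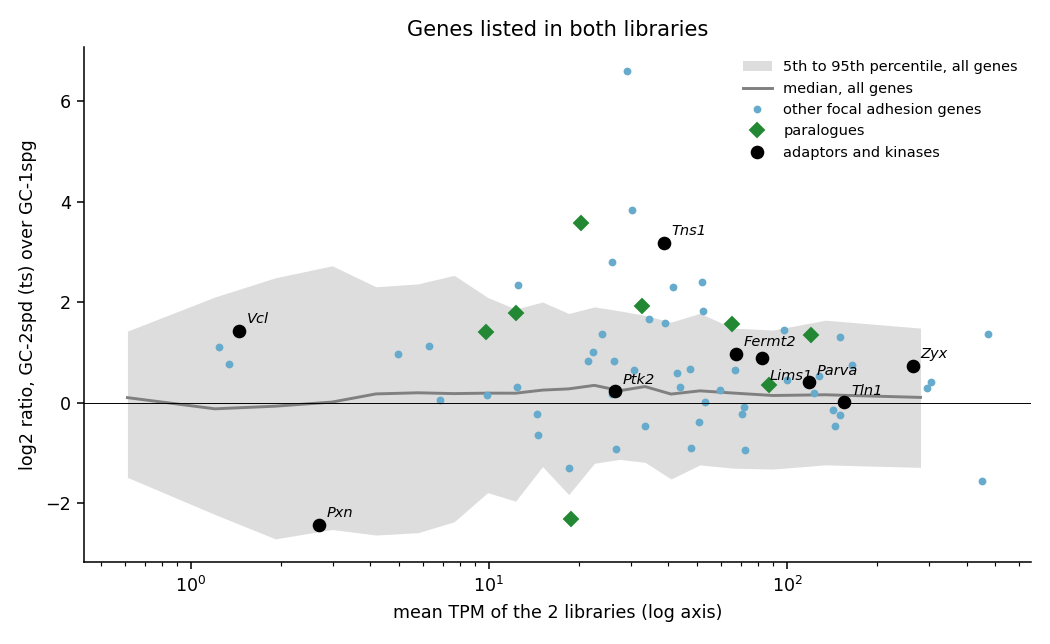
log2 ratio of GC-2spd (ts) over GC-1spg (y axis) against the mean TPM of the libraries (log x axis) for genes listed in both, with the 5th to 95th percentile of all genes in grey, the adaptors and kinases in black, paralogues in green and other focal adhesion genes in blue. *Tns1* lies above the grey band, and the other labelled genes lie within or at its edge.

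*Srf* encodes serum response factor, which with its coactivators controls many genes of the actin cytoskeleton through the CArG box. It had 84 copies in GC-1spg against 248 in GC-2spd (ts), for a log2 ratio of 1.66 (1.30 to 2.04, FDR 1.93e-21), and was called higher. Its coactivator gene *Mrtfa* had 121 and 178 copies and was not called, and *Myocd* had no listed tag. RefSeq promoters of 300 bases on GRCm38.p6, 250 before and 50 after the start, were at hand for 7 of the 10 genes and not for *Parva*, *Ptk2* and *Pxn*. The CArG box, which reads alike on both strands, was found in *Vcl* and *Fermt2*, 2 of these 7 genes. Over all genes it was found in 1.81% of 27025 genes, and in 1.63% of 32851 promoters. The box of each, in capitals with 10 bases on either side, begins at -227 in *Vcl* and at -204 in *Fermt2*.
*Vcl*, from the promoter chr14:20929148-20929447: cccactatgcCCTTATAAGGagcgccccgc
*Fermt2*, from the promoter chr14:45530016-45530315: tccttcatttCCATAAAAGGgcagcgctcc
A match is a description of the sequence, and *Tns1*, the gene that was called in the main count, had no box in its window.

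Markers of other testis cells and of fibroblasts were read beside these genes. Of the fibroblast list 7 of 8 were listed, with a summed level of 3630 TPM in GC-1spg against 2627 in GC-2spd (ts), and *Thy1* had no listed tag. *Col1a1*, its most abundant gene, had 10465 and 2425 copies and was called lower in GC-2spd (ts), while *Vim*, with 984 and 2897 copies, and *Col3a1*, with 50 and 120, were called higher. Of the peritubular myoid list 5 of 5 were listed, summing to 13.0 and 122 TPM. Most of this was *Acta2*, at 50 and 555 copies (9.86 and 117 TPM). *Des* had 11 and 4 copies, *Cnn1* 5 and 15 and *Myh11* 0 and 2, and none of these was called. *Tagln* of that list had 0 and 3 copies, but 5 and 219 with sense matches preferred, and was then called higher. Of the Sertoli list 4 of 7 were listed, summing to 135 and 38.9 TPM, with *Cldn11*, *Rhox5* and *Fshr* without a tag. *Wt1*, at 620 and 0 copies, was called lower, *Gata4*, at 29 and 138, was called higher, and *Sox9*, at 29 and 46, was not called. Of the Leydig list 2 of 5 were listed, summing to 0.79 and 1.06 TPM, with *Star* the most abundant and *Cyp17a1*, *Hsd3b1* and *Insl3* without a tag. *Acta2*, like *Tns1*, was called higher in GC-2spd (ts), and the part of these markers in the values above was not tested.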

How the data were processed

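DGE tags of 1 library per line were used. The authors filtered out adaptors, low quality reads and tags seen in 1 copy. Each tag that remained was deposited with its raw count and its TPM, in which the library total serves as the denominator. The study matched tags to UniGene clusters, which were not used here, and its matching program was not given in the sources used here.

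Here all CATG+17 tags were taken from 141767 transcripts of GENCODE M21 (GRCm38), sense and antisense, and each deposited tag was matched with at most 1 mismatch, exact matches first. Sense counts of tags whose best matches belong to 1 gene were summed. The Audic-Claverie test was run over 14450 genes with Benjamini-Hochberg adjustment, with 0.01 TPM for an unlisted gene. edgeR's quasi-likelihood test needs replicates and could not be fitted, so its exact test was an alternative, at a BCV set to 0.1, 0.2 or 0.4. Ratio intervals are exact (conditional Clopper-Pearson), and folds against an unlisted gene are lower limits (upper 95% Poisson bound on 1 missed copy for each tag of the gene).

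The genes, lists, tests and alternatives were chosen with earlier results of these data known. All 10 genes, every listed paralogue, every called gene and the 2 most abundant genes of each other list, and of the marker lists the genes without a tag and the most abundant one, were to be named; the other marker genes were chosen after their values were seen. Software was Python 3.11.15 (scipy 1.17.1, numpy 2.4.6, matplotlib 3.10.9, pandas 2.3.3), edgeR 4.0.16 and R 4.3.3.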

Additional observations from a re-analysis of the deposited data

Results flagged for a closer look

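Antisense tags of 8 of the 10 genes, which the sense counts leave out, exceeded the 3 copies that a count of 0 allows when summed over both libraries. There were 145 for *Pxn* (115 in GC-1spg against 30 in GC-2spd (ts)), more than its 23 and 4 sense copies in the main count. They come from 1 tag at chr5:115555955-115555975 on the minus strand, CATGgcaaactttattggcat, which is read from the same CATG as the tags that run into the poly(A) tail. There were 146 for *Parva* (99 and 47), of which 85 and 41 came from 1 tag in the 3′ UTR. There were 97 for *Lims1* (35 and 62), 71 for *Zyx* (24 and 47), 64 for *Ptk2* (30 and 34), 46 for *Fermt2* (28 and 18), 20 for *Tln1* (11 and 9) and 11 for *Tns1* (0 and 11). These sums cover tags that match no other gene, and they were not tested between the libraries.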

How the results depend on the processing

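The number of adaptors and kinases called was 1 and became 2 with sense and antisense tags summed, with transcripts extended by poly(A), with the longest transcript only, with the site nearest the 3′ end, with TMM scaling, with unambiguous sense tags as the total and with at least 10 tags, and 0 in edgeR's exact test at a BCV of 0.4. The gene gained was *Zyx* with the longest transcript, *Fermt2* with the site nearest the 3′ end and *Pxn* in the others. The paralogues called fell from 8 to 6 with sense matches preferred and with shared tags split, and to 4 and 1 at a BCV of 0.2 and 0.4, and the other focal adhesion genes called from 18 to 8 and 2. The number with a shifted site was 1, and became 2 with poly(A) and 0 with the longest transcript. The call gained with poly(A), *Pxn*, was between 2 tags of 1 CATG and not between CATG sites. The median log2 ratio of 0.74 was 0.37 with sense matches preferred and 0.37 with shared tags split, 0.62 with antisense tags summed, 0.89 with the longest transcript and 0.57 with TMM. Of 99 recomputed ratios of single genes, 83 kept direction and side of the threshold, 10 changed sign, 6 gained the call and 0 lost it. These 99 leave out the edgeR settings and the setting of at least 10 tags, which recompute no ratio. In edgeR's exact test at a BCV of 0.4 *Tns1* lost its call. The sign of *Tln1* changed with shared tags split (-0.0010), the site nearest the 3′ end (-0.056), TMM (-0.17) and unambiguous tags as the total (-0.077). That of *Ptk2* changed with shared tags split (-0.15), exact matches (-0.043) and the longest transcript (-5.30, from 2 and 0 copies with 0.01 TPM for the latter), and that of *Parva* with the longest transcript (-0.22, from 5 and 4 copies). That of *Vcl* changed with sense matches preferred (-0.22) and with shared tags split (-0.20). The longest transcript holds fewer sites than all transcripts together. For the other changes of direction the cause was not tested. No paired analysis was possible because each line has 1 library. The copies counted for *Vcl* and *Pxn* depended on the matching rule. The same libraries gave *Vcl* 752 and 602 copies with sense matches preferred, and *Pxn* 1012 and 263 with poly(A). Whether the tags added by these rules come from *Vcl* and *Pxn* was not tested.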
